A study of Homo sapiens with 6 samples.

Results

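The mitochondrial ribosomal protein genes were taken as every gene of the count table whose symbol is MRPL followed by a number, or MRPS followed by a number with or without a letter A to C. This gave 78 of the 58735 genes, of which 76 passed the count filter. RNA was sequenced from VCaP, a line of human prostate cancer cells. The cells carried a stably introduced short hairpin RNA (shRNA) against NEDD9 (shNEDD9, 3 libraries) or a non-targeting shRNA (shNTC, 3 libraries), and both were grown in medium with 10% foetal bovine serum. The study asked which genes change when NEDD9, which encodes an adaptor protein that assembles signalling complexes at focal adhesions, is silenced. 1 hairpin label per group is given, so differences between stably infected populations cannot be told apart from those of the knockdown.

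Mitochondria keep their own ribosome, which translates only the membrane proteins of the respiratory chain and ATP synthase that mitochondrial DNA encodes. Its small and large subunits pair ribosomal RNAs made inside the organelle with proteins that are all encoded in the nucleus, made in the cytosol and imported. Many of these proteins descend from bacterial ribosomal proteins, and the rest, called mitochondrion-specific here, occupy positions that have no counterpart in the bacterial ribosome. Three-dimensional structures of the human particle reassigned some symbols: MRPS18A and MRPS30 lie in the large subunit, and MRPS36 is a subunit of the 2-oxoglutarate dehydrogenase complex (RefSeq symbol KGD4). By structure, 26 of the 78 genes encode small subunit proteins and 51 large subunit proteins.

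A short word recurred at the starts of these genes, and it is shown here because most copies lie over the initiation codon. AAGATGGC, a word of the type bound by the transcription factor YY1, was found on either strand in 21 of 70 genes with a RefSeq promoter window (GRCh38.p14, 250 bases before to 50 bases after the start), or 30% of them. The word was found in 3.52% of all 27305 genes with such a window and in 4.67% of the 15843 protein-coding ones. In 16 of the 21 genes it lay after the start, and in 13 it covered the annotated start codon. In the 30-base stretches below, read 5′ to 3′ on the gene's strand, capitals mark this word. The stretches were picked by fold change, the first 5 genes as the highest and the others as the lowest. They came from tested members whose word lay after the start on the gene's strand, with the 30 bases inside the window. The first 5 genes were called higher in shNEDD9 cells, MRPL38 and MRPL49 were not called, and MRPL50 was called lower.
MRPS18B (chr6:30617852-30617881, plus strand): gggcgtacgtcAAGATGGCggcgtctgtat
MRPS27 (chr5:72320206-72320235, minus strand): tggtacgctccAAGATGGCtgcctccatag
MRPL45 (chr17:38297170-38297199, plus strand): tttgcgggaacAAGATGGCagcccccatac
MRPL51 (chr12:6493223-6493252, minus strand): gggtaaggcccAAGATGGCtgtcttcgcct
MRPS7 (chr17:75261887-75261916, plus strand): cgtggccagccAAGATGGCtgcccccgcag
MRPL38 (chr17:75904860-75904889, minus strand): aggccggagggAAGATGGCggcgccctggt
MRPL49 (chr11:65122333-65122362, plus strand): cgtagcaggtaAAGATGGCagctaccatgt
MRPL50 (chr9:101398577-101398606, minus strand): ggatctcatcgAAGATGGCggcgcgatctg
The word covers the annotated start codon in these stretches except that of MRPL51. Among members tested, 15 of 20 with the word were called higher, with a median log2 fold change of 0.48, and 42 of 49 without it, with a median of 0.53. Of all members tested 82.9% were called higher, and of all genes tested 35.5%. Whether calls differ with the word was not tested.

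Of 3 other words searched on both strands, CCGGAAGT (ETS-type) was in 12 of the 70 genes, or 17.1%, against 4.95% of all genes with a window and 6.98% of the protein-coding ones. GCATGCGC, the type bound by NRF1, an activator of nuclear genes for mitochondria, was in 6 genes (8.57%, against 3.68% of all and 4.89% of protein-coding genes). CACGTG, the E-box bound by MYC and related factors, was in 10 genes (14.3%, against 8.78% of all and 10.9% of protein-coding genes). No word overlapped a word of another type in these windows. The 250 bases before the start are shown for MRPS18B, the gene of largest fold change, for MRPL17, which held 3 NRF1-type words, and for MRPL50, the member that fell most. Capitals mark the NRF1-type word on either strand. A pair of copies on opposite strands overlaps in MRPL17, and MRPL50 held none.
MRPS18B (chr6:30617590-30617839, plus strand): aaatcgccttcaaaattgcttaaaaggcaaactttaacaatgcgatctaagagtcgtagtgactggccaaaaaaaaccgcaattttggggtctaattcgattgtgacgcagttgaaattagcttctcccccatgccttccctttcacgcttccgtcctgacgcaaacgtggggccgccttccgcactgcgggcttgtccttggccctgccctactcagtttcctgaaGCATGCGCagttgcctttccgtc
MRPL17 (chr11:6683341-6683590, minus strand): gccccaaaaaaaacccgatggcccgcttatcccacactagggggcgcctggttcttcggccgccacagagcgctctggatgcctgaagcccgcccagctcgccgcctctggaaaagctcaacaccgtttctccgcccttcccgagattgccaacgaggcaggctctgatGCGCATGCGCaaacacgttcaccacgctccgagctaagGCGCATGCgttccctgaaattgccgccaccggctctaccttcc
MRPL50 (chr9:101398619-101398868, minus strand): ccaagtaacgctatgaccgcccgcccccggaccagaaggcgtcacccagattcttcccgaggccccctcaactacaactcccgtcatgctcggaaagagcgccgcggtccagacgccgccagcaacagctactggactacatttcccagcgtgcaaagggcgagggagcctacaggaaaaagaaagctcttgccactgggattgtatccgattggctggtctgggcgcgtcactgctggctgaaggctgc
Among members tested, 5 of the 6 with the NRF1-type word were called higher (median log2 fold change 0.57), and 52 of 63 without it (median 0.50). With the ETS-type word 11 of 12 were called higher (median 0.49), and 46 of 57 without it (median 0.53). With the E-box 8 of 10 were called higher (median 0.62), and 49 of 59 without it (median 0.49). These counts stand beside 82.9% of all members tested and 35.5% of all genes tested, and differences by word were not tested.

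NEDD9 itself had 137, 138 and 136 CPM (counts scaled to the library total and TMM factor) in shNEDD9 libraries, against 362, 339 and 365 CPM in shNTC libraries. Its log2 fold change was -1.39 (SE 0.04). The libraries held 5956486, 7806980 and 9902002 counts in shNEDD9 and 7492244, 3217276 and 6452350 counts in shNTC. A count of 3, taken as the detection floor, equals 0.303 to 0.932 CPM. Libraries of the same group differed little beyond counting error (chi-square over degrees of freedom 1.14 to 1.2), and the common biological coefficient of variation was 1.65%. Of 13958 genes tested, 71.4% were called in either direction. The p-values measure the spread between these libraries, which was close to counting error. Sample titles give replicate numbers only, not whether the libraries came from separate cultures. The T cell marker CD3E and the endothelial marker CDH5 had 0 counts in every library, and the general leukocyte marker PTPRC had 1 count in all. Summed over each list, leukocyte markers held 0.000571% to 0.000667% of counts in shNEDD9 libraries and 0.00182% to 0.00249% in shNTC libraries. LYZ carried most of the shNTC sum, at 1.5 CPM on average in shNEDD9 and 16.8 CPM in shNTC, and was called lower. Endothelial markers held 0.000162% to 0.000235% of counts in shNEDD9 libraries and 0.000133% to 0.00028% in shNTC libraries, most of it VWF. Fibroblast markers held 0.00475% to 0.0055% in shNEDD9 libraries and 0.00262% to 0.00333% in shNTC libraries, most of it LUM. The part of these markers in the results below was not tested. The VCaP and prostate markers ERG, TMPRSS2 and KLK3 were detected in every library. Of 10 VCaP and prostate markers 6 were called lower and 2 higher, beside 35.9% and 35.5% of all genes tested. Those lower included FOLH1 (3.21-fold), KRT8 (2.69-fold) and TMPRSS2 (1.54-fold), whereas KLK3 was called higher (3.36-fold). Summed, the 10 markers held on average 0.637% of counts in shNEDD9 libraries and 0.572% in shNTC libraries. The part of these shifts in the members' values was not tested either.

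Most genes of the mitochondrial ribosome were higher in shNEDD9 cells. Of the 76 tested, 63 rose, 2 fell (MRPL41 and MRPL50) and 11 were not called (edgeR quasi-likelihood test, Benjamini-Hochberg adjusted p under 0.05). Over all genes tested, 35.5% rose and 35.9% fell. The median log2 fold change was 0.52 over the 76 genes, with quartiles of 0.29 and 0.76 and a range of -0.36 to 1.44, and 0.00 over all genes tested. In bulk RNA, more cells with a high level and more RNA per cell cannot be told apart. 33 genes rose by at least 1.5-fold (17.2% of all genes tested) and 4 by at least 2-fold (7.67% of all genes tested), namely MRPS18B, MRPL2, MRPL48 and MRPS15. In 64 genes every shNEDD9 library exceeded every shNTC library, a pattern found in 35.7% of all genes tested, and in 2 genes every shNEDD9 library was below, found in 36.1%. When a change beyond 1.2-fold was required (edgeR glmTreat), 52 of the 76 were called higher (24.7% of all genes tested) and 0 lower, with 0 lower also at an unadjusted p under 0.05.

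**Figure D1:**
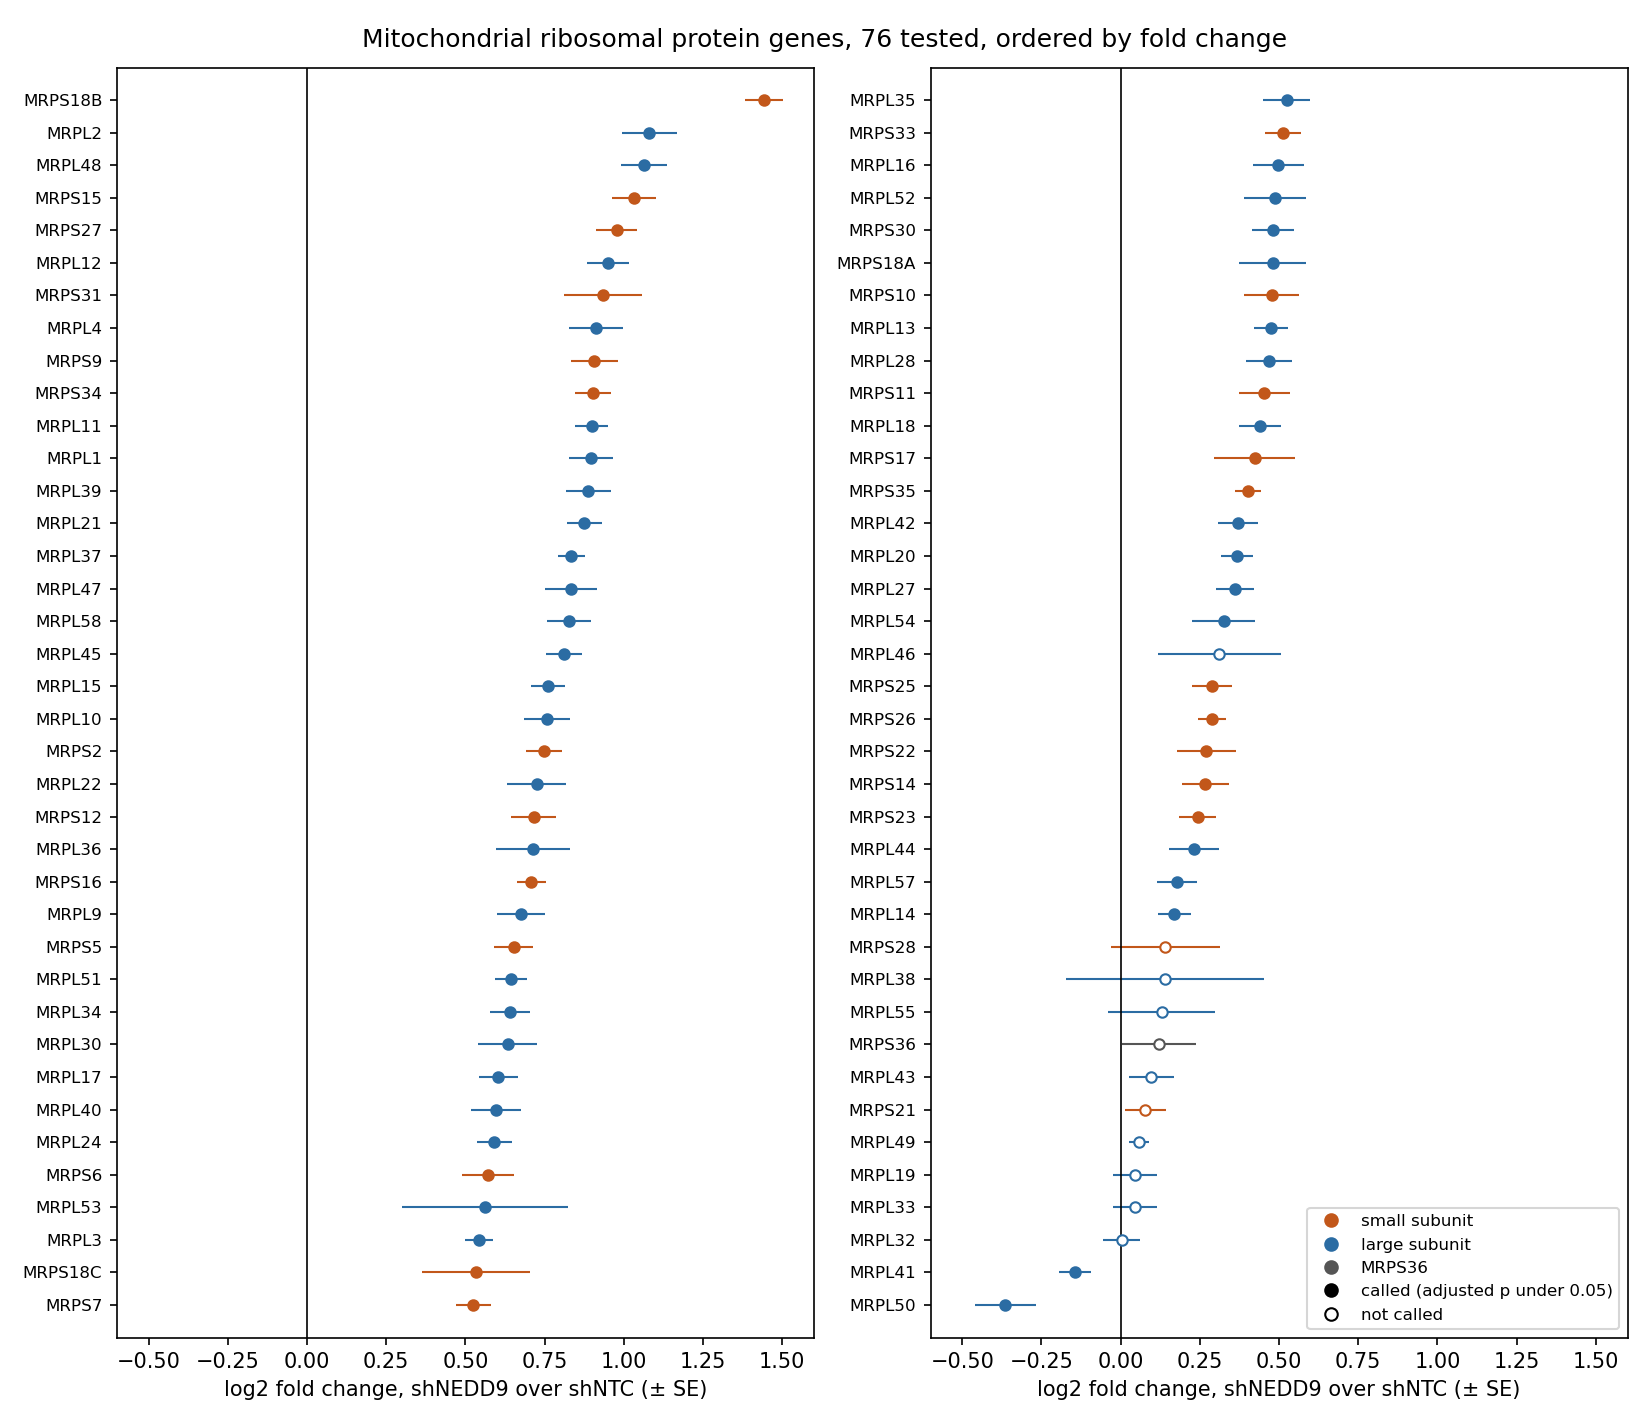
Log2 fold change of each of the 76 tested mitochondrial ribosomal protein genes, shNEDD9 over shNTC (x axis, ± SE, n = 3 libraries per group), ordered by size. Filled points were called by edgeR at an adjusted p under 0.05 and open points were not. Values run from 1.44 for MRPS18B to -0.36 for MRPL50, and 74 of the 76 lie above 0.

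The shift was seen in each library. Relative to the mean of the shNTC libraries, the median member stood at 0.55, 0.53 and 0.56 on the log2 scale in the 3 shNEDD9 libraries, against -0.01, 0.00 and 0.01 in the shNTC libraries. Between 71 and 72 of the 76 genes lay above the shNTC mean in each shNEDD9 library, against 30 to 43 in each shNTC library. Summed over all 78 genes, members took 0.548%, 0.541% and 0.547% of the counts of shNEDD9 libraries, against 0.374%, 0.380% and 0.379% of those of shNTC libraries. The groups did not overlap, and the ratio of their means was 1.44. MRPL49, the member of highest CPM, was not called, and without it the ratio was 1.48.

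**Figure D2:**
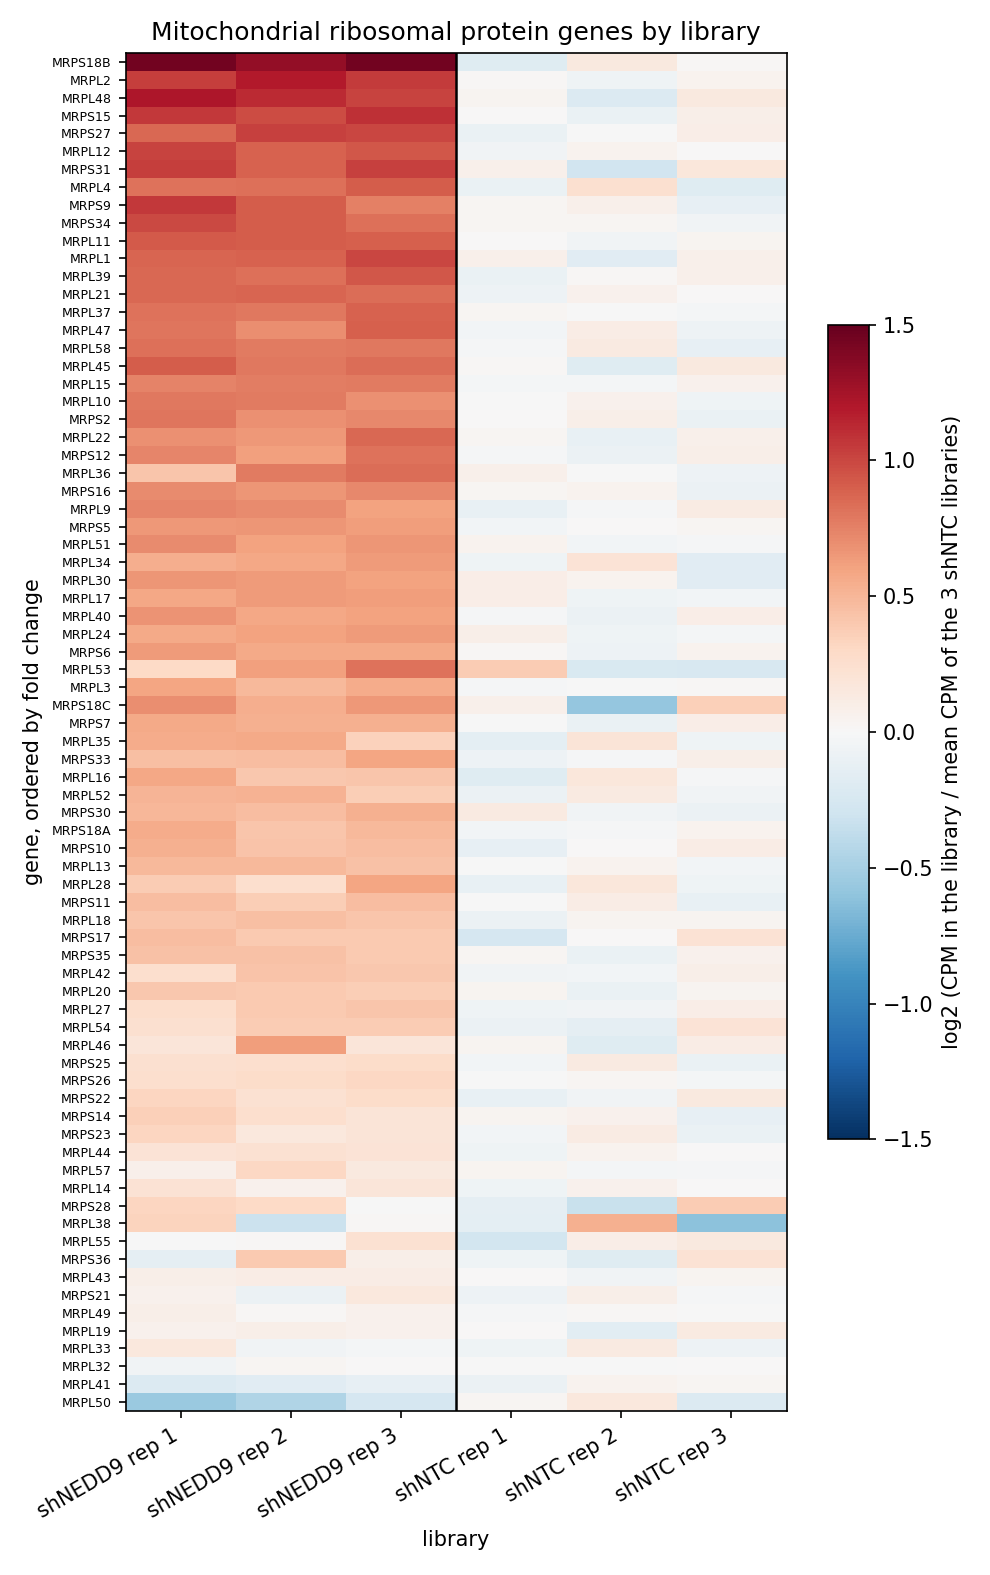
CPM of each tested mitochondrial ribosomal protein gene in each library, as log2 of the ratio to the mean of the 3 shNTC libraries (colour), with genes ordered by fold change from top to bottom. The shNEDD9 columns are red over most genes, with library medians of 0.53 to 0.56, while the shNTC columns scatter around 0.

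Both subunits shared the shift. Of 25 small subunit genes tested, 23 rose and 0 fell (all 25 log2 fold changes were positive), and MRPS21 and MRPS28 were not called. Of 50 large subunit genes tested, 40 rose, 2 fell and 8 were not called. The median log2 fold change was 0.53 in each. Small subunit genes took 0.184% ± 0.00276 of counts in shNEDD9 and 0.121% ± 0.00127 in shNTC, a ratio of 1.52. Large subunit genes took 0.359% ± 0.00196 in shNEDD9 and 0.255% ± 0.00196 in shNTC (SD, n = 3 each), a ratio of 1.41. Of 44 tested genes with a bacterial counterpart, 38 rose and 0 fell (all 44 log2 fold changes positive, median 0.58). Of 31 genes specific to mitochondria, 25 rose and both members that fell were among them (median 0.48). Beside these counts, 82.9% of all members tested rose, and of all genes tested 35.5% rose and 35.9% fell. The differences between the subunits and between these classes were not tested.

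**Figure D3:**
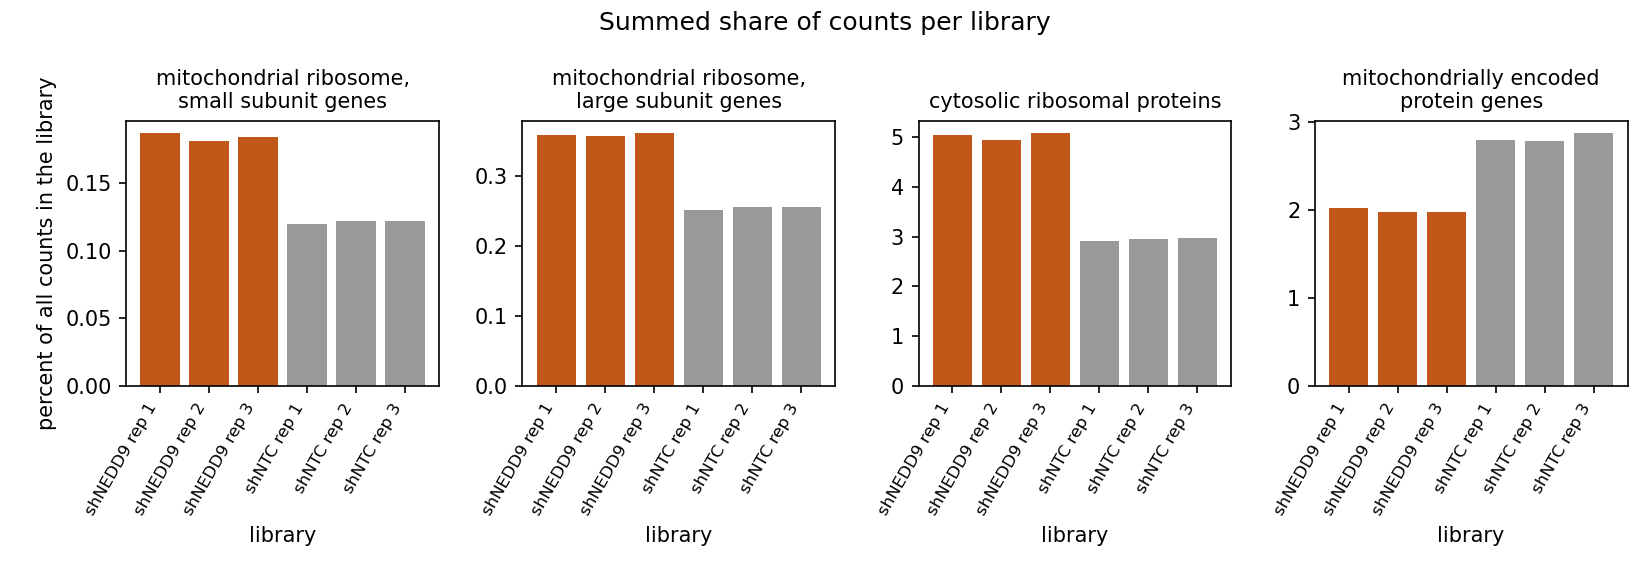
Percent of all counts in a library (y axis, from 0) held by 26 small subunit genes, 51 large subunit genes, 79 cytosolic ribosomal protein genes and 13 mitochondrially encoded protein genes, 1 bar per library. The first 3 sums are higher in every shNEDD9 library than in any shNTC library, and the last is lower in every shNEDD9 library.

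MRPS18B (ENSG00000204568, chromosome 6, 30617709 to 30626395, plus strand, GRCh38) showed the largest rise. It encodes 1 of 3 MRPS18 proteins, which are related in sequence but occupy different places in the particle, of which only that of MRPS18C has a bacterial counterpart. It had 118, 108 and 118 CPM in shNEDD9 libraries, against 38.1, 47.8 and 43.8 CPM in shNTC libraries. The lowest shNEDD9 library was above the highest shNTC library by a wide margin, and the gene rose 2.72-fold (log2 fold change 1.44, SE 0.06, edgeR adjusted p = 4.37e-125). MRPS18A, the large subunit copy, averaged 24.5 ± 1.21 CPM in shNEDD9 and 17.5 ± 0.572 CPM in shNTC (log2 fold change 0.48, SE 0.11). MRPS18C, the copy in the place of the bacterial protein, had 9.9, 8.9 and 9.58 CPM in shNEDD9 libraries, against 6.45, 4.08 and 7.83 CPM in shNTC libraries (log2 fold change 0.53, SE 0.17). The 3 genes lie apart from each other on chromosomes 6 and 4, and none of their groups overlapped. Every shNEDD9 library also exceeded every shNTC library in 64 of the 76 members tested and in 35.7% of all genes tested. MRPS18A and MRPS18C share 47.0% and 40.2% of their exon length with genes on the opposite strand, and MRPS18B shares none.

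Other small subunit genes with large rises were MRPS15, MRPS27, MRPS31, MRPS9 and MRPS34. MRPS15 (ENSG00000116898, chromosome 1, 36455718 to 36464437), a relative of a bacterial protein that binds ribosomal RNA early in assembly, had 73.2, 69.1 and 75 CPM in shNEDD9 libraries, against 35.1, 32.7 and 37.2 CPM in shNTC libraries. It rose 2.05-fold (log2 fold change 1.03, SE 0.07). MRPS27, a pentatricopeptide repeat protein of an RNA-binding family, had 78.5, 87.8 and 86.4 CPM in shNEDD9 libraries, against 40.3, 43.0 and 46.2 CPM in shNTC libraries (log2 fold change 0.98, SE 0.06). In both genes the groups were well separated. MRPS31 had 22, 19.8 and 21.9 CPM in shNEDD9 libraries, against 11.3, 8.8 and 12.1 CPM in shNTC libraries (log2 fold change 0.93, SE 0.12). MRPS9 averaged 60.6 ± 6.40 CPM in shNEDD9 and 32.1 ± 2.26 CPM in shNTC (SD, n = 3 each; log2 fold change 0.91, SE 0.07). MRPS34, a mitochondrion-specific protein needed for the stability of the small ribosomal RNA, had 115, 107 and 102 CPM in shNEDD9 libraries, against 58.6, 58.4 and 55.4 CPM in shNTC libraries (log2 fold change 0.90, SE 0.06). All 10 small subunit genes specific to mitochondria rose, beside 82.9% of all members tested and 35.5% of all genes tested. Of 19 alternatives, the call held in 14 for MRPS22, in 17 each for MRPS23 and MRPS25, and in 18 for MRPS26. MRPS22 lost it with DESeq2, with thinning and without shNTC replicate 1, among others. MRPS12, which lies at the decoding site and whose bacterial counterpart is a site of streptomycin resistance, had 60.8, 56.1 and 64.5 CPM in shNEDD9 libraries, against 36.3, 34.6 and 39.0 CPM in shNTC libraries (log2 fold change 0.72, SE 0.07). MRPS35, also of high CPM, rose to 187 ± 3.61 CPM in shNEDD9, against 140 ± 8.09 CPM in shNTC (log2 fold change 0.40, SE 0.04).

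In the large subunit, all 5 genes listed here for proteins near the peptidyl transferase centre and the start of the exit tunnel rose. These sites, and the stalk, tunnel exit and central protuberance groups that follow, were put together after the values were seen, and 63 of all 76 members tested (82.9%) rose. MRPL2 (ENSG00000112651, chromosome 6, 43054029 to 43059806, minus strand) had 43.1, 47.8 and 43.7 CPM in shNEDD9 libraries, against 21.2, 20.1 and 21.8 CPM in shNTC libraries, a 2.12-fold rise (log2 fold change 1.08, SE 0.09). MRPL4 followed, with a log2 fold change of 0.91 (SE 0.09). MRPL3, MRPL16 and MRPL27 rose by 0.54, 0.50 and 0.36 on the log2 scale (SE 0.04, 0.08 and 0.06). In all 5 genes every shNEDD9 library was above every shNTC library, as in 64 of the 76 members tested and 35.7% of all genes tested. MRPL3 was among the 4 members of highest CPM, at 174, 162 and 169 CPM in shNEDD9 libraries, against 114, 115 and 117 CPM in shNTC libraries.

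The stalk that recruits translation factors showed some of the larger rises. MRPL12 (ENSG00000262814, chromosome 17, 81703357 to 81707526), the stalk protein that has also been described to bind the mitochondrial RNA polymerase, had 80.7, 74.0 and 76.2 CPM in shNEDD9 libraries, against 38.6, 41.5 and 40.1 CPM in shNTC libraries. It rose 1.93-fold (log2 fold change 0.95, SE 0.07). MRPL12 shares 68.2% of its exon length with AC139530.2 on the same strand, where reads may have been dropped or assigned elsewhere. MRPL11, at the base of the stalk, had 131, 129 and 128 CPM in shNEDD9 libraries, against 69.0, 66.6 and 71.1 CPM in shNTC libraries (log2 fold change 0.90, SE 0.05). MRPL10, which anchors MRPL12, rose by 0.76 (SE 0.07). In all 3 stalk genes every shNEDD9 library was above every shNTC library, as in 64 of the 76 members and in 35.7% of all genes tested.

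Proteins around the exit of the nascent chain tunnel rose as well. All 5 tested genes of this group, also chosen after the values were seen, rose, at log2 fold changes of 0.59 (MRPL24), 0.60 (MRPL17), 0.72 (MRPL22), 0.81 (MRPL45) and 0.83 (MRPL47). MRPL45, which contacts the inner membrane, had 105, 97.3 and 100.1 CPM in shNEDD9 libraries, against 56.7, 49.3 and 62.1 CPM in shNTC libraries, with no overlap. The 4 genes listed here for the central protuberance, the crest that faces the small subunit, were uneven. This list may leave out other genes of the site. MRPL48 (ENSG00000175581, chromosome 11, 73787316 to 73865133) had 70.5, 66.3 and 61.5 CPM in shNEDD9 libraries, against 31.5, 26.4 and 33.6 CPM in shNTC libraries, and rose 2.09-fold (log2 fold change 1.06, SE 0.07). MRPL40 rose by 0.60 (SE 0.08). MRPL46 and MRPL38, which had few counts, were not called, at 0.31 (SE 0.19) and 0.14 (SE 0.31).

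MRPL58, a peptidyl-tRNA hydrolase that became part of the large subunit, had 66.1, 64.2 and 64.7 CPM in shNEDD9 libraries, against 36.7, 40.8 and 34.3 CPM in shNTC libraries (log2 fold change 0.83, SE 0.07). MRPL37, which had the second highest CPM in shNEDD9 cells, had 198, 195 and 208 CPM in shNEDD9 libraries, against 115, 112 and 110.3 CPM in shNTC libraries (log2 fold change 0.83, SE 0.04). MRPS30, a large subunit protein despite its symbol, averaged 65.8 ± 1.5 CPM in shNEDD9 and 46.7 ± 3.87 CPM in shNTC (log2 fold change 0.48, SE 0.07). None of these 3 genes had overlapping groups, beside 64 of the 76 members tested and 35.7% of all genes tested with every shNEDD9 library higher. Of the other large subunit genes, MRPL1, MRPL39 and MRPL21 rose by 0.90, 0.89 and 0.88, and MRPL57, MRPL14 and MRPL44 by only 0.18, 0.17 and 0.23. Of 19 alternatives, the call was lost in 6 for MRPL57 (among them without shNEDD9 replicate 2 and with DESeq2, log2 fold change down to 0.07), in 3 for MRPL14 and in 5 for MRPL44, both without shNTC replicate 1.

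Most of 12 members grouped by known disease alleles rose. Inherited defects of 12 of these genes are known to impair mitochondrial translation in humans (MRPS2, MRPS7, MRPS14, MRPS16, MRPS22, MRPS23, MRPS25, MRPS28, MRPS34, MRPL3, MRPL12 and MRPL44, grouped after the values were seen). Of the 12, 11 rose (91.7%, beside 82.9% of all members tested) and MRPS28 was not called, with a median log2 fold change of 0.41. The group may leave out other such genes. Of 19 alternatives, the call held in 14 for MRPS22 and MRPL44, and in 17 for MRPS14, MRPS23 and MRPS25. MRPS16, a small subunit gene of this group, had 161, 156 and 163 CPM in shNEDD9 libraries, against 101, 102 and 92.7 CPM in shNTC libraries (log2 fold change 0.71, SE 0.05), without overlap.

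A minority of members did not follow. MRPL49 (ENSG00000149792, chromosome 11, 65122183 to 65127371), a mitochondrion-specific protein and the member of highest CPM, had 363, 346 and 357 CPM in shNEDD9 libraries, against 338, 347 and 340.2 CPM in shNTC libraries. The groups overlapped, and its log2 fold change was 0.06 (SE 0.03, edgeR adjusted p = 0.0763). It was called higher under 3 alternatives, namely library totals, no count filter and leaving out shNEDD9 replicate 2. MRPL32, whose protein in mouse and yeast is matured by the m-AAA protease before it joins the ribosome, had 70.5, 74.7 and 73.4 CPM in shNEDD9 libraries, against 72.8, 72.9 and 73.1 CPM in shNTC libraries (log2 fold change 0.00, SE 0.06). MRPL33, MRPL19, MRPS21 and MRPL43 also had means above 40 CPM and were not called, with log2 fold changes of 0.05, 0.05, 0.08 and 0.10 and SE of 0.06 to 0.07. MRPS28, MRPL55, MRPL46 and MRPL38 had means under 10 CPM in each group, with SE of 0.17 to 0.31, and smaller changes were not detectable at this depth. MRPS36, the dehydrogenase subunit, had 14.6, 21.1 and 17.0 CPM in shNEDD9 libraries, against 15.3, 14.1 and 18.6 CPM in shNTC libraries, with overlapping groups (log2 fold change 0.12, SE 0.12).

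The 2 members that fell are both large subunit proteins specific to mitochondria, on chromosome 9. MRPL50 (ENSG00000136897, 101387633 to 101398614, minus strand) had 19.1, 20.6 and 23.7 CPM in shNEDD9 libraries, against 28.8, 31.4 and 24.4 CPM in shNTC libraries. The highest shNEDD9 library was just below the lowest shNTC library, and the gene fell 1.29-fold (log2 fold change -0.36, SE 0.10, edgeR adjusted p = 0.00035). MRPL41 (ENSG00000182154, 137551199 to 137552555, plus strand) had 90.0, 91.9 and 95.4 CPM in shNEDD9 libraries, against 97.6, 107 and 106 CPM in shNTC libraries. It fell 1.11-fold (log2 fold change -0.15, SE 0.05, edgeR adjusted p = 0.00662), and the call was lost when shNTC replicate 3 was left out. MRPL53, a gene of few counts, was called higher with overlapping groups, at 3.19, 3.94 and 4.54 CPM in shNEDD9 libraries and 3.36, 2.20 and 2.19 CPM in shNTC libraries (log2 fold change 0.56, SE 0.26, edgeR adjusted p = 0.045). That call was lost in 12 of 19 alternatives.

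**Figure D4:**
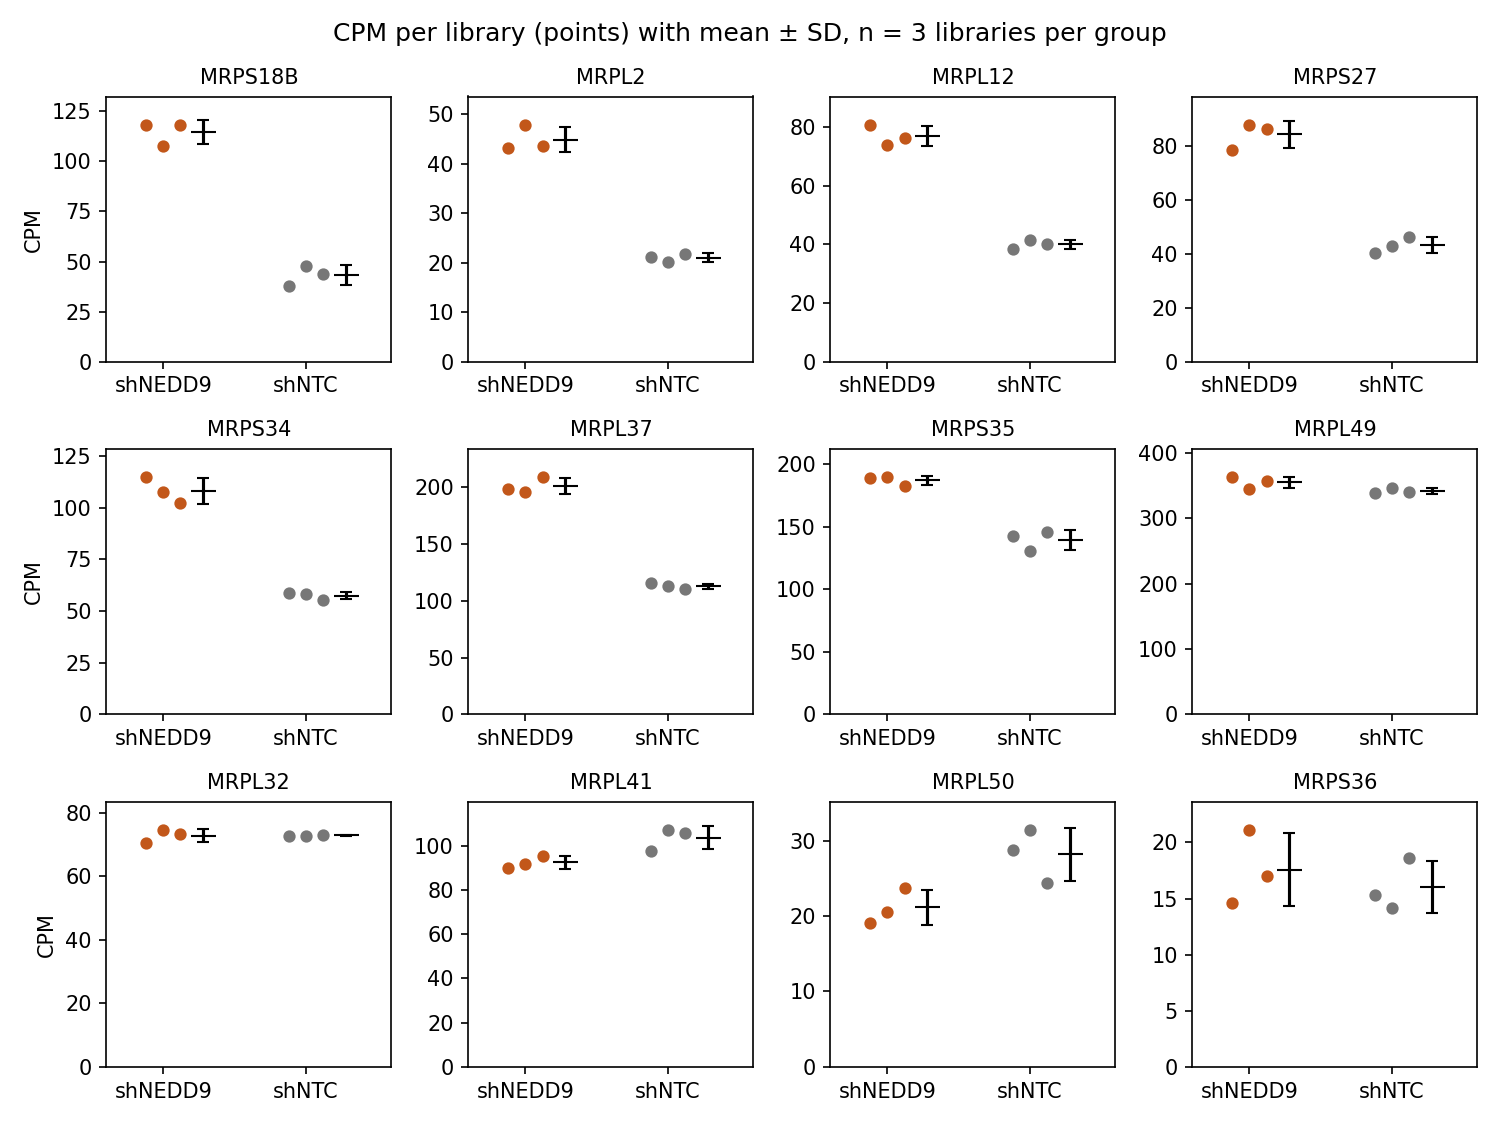
CPM in each library (points) with mean ± SD (n = 3 libraries per group) for 12 mitochondrial ribosomal protein genes, each on its own y axis from 0. MRPS18B, MRPL2, MRPL12, MRPS27, MRPS34, MRPL37 and MRPS35 are higher in every shNEDD9 library, MRPL49, MRPL32 and MRPS36 overlap, and MRPL41 and MRPL50 are lower in every shNEDD9 library.

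MRPS24 and MRPL23 were too low to test. MRPS24 had 3, 6 and 5 counts in shNEDD9 libraries and 4, 2 and 1 in shNTC libraries. It shares 23.2% of its exon length with the readthrough gene URGCP-MRPS24 on the same strand, which had 0 counts in every library. MRPL23 had 15, 7 and 14 counts in shNEDD9 libraries and 4, 7 and 5 in shNTC libraries. The groups overlapped for both genes. Under alternatives that kept it, MRPL23 was called higher in 1 of 8, without shNTC replicate 2 (log2 fold change up to 1.2 over the 8, edgeR adjusted p 0.0297 to 0.636). MRPS24 was tested in 1 alternative and not called (adjusted p = 0.59).

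Members differed widely in level. Per kilobase of exon, they ranged from 0.653 to 111 CPM in shNTC libraries, with a median of 16.5 CPM per kilobase, and the median in shNEDD9 libraries was 24.2 CPM per kilobase. MRPS26 and MRPL49 were highest per kilobase in shNEDD9 (128 and 115) and in shNTC (105 and 111), and MRPL38 was the lowest tested (0.669 in shNEDD9 and 0.653 in shNTC). Apart from the stalk protein MRPL12 and the dehydrogenase subunit MRPS36, each protein is present in a single copy per ribosome. MRPL38 shares 41.1% of its exon length with other genes, and the part of shared exons in the spread of levels was not tested. Across the 76 genes, the log2 fold change had little relation to exon length (Pearson r -0.093), to mean CPM (r 0.142) or to the shNTC level per kilobase (r 0.0385); these are descriptions over genes of the same 6 libraries.

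The rises were spread over the genome. The 76 genes lie on 21 chromosomes. Neighbours were taken as up to 10 tested genes on each side by start position, with other members left out. Of the 76 genes, 67 exceeded the median log2 fold change of their neighbours, and these medians ranged from -0.76 to 0.63 around 0.04. The share of all genes tested that exceed their neighbours was not computed. Some members share exons with other genes, and reads there may have been dropped or assigned elsewhere. Of 37 genes that share no exon sequence, 32 rose and 2 fell. Of 25 tested genes that share at least 10% of their exon length, 19 rose and 0 fell, all 25 with positive log2 fold changes. Beside these counts, 82.9% of all members tested rose, and of all genes tested 35.5% rose and 35.9% fell. Pseudogenes named after members (75 in the table) held 139 counts in all, equal to 0.0717% of the members' counts, and none passed the filter.

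Most other genes for proteins of the mitochondrial ribosome that carry unrelated symbols were also higher, beside 35.5% of all genes tested. Of 5, 4 rose, namely PTCD3 (log2 fold change 0.57, SE 0.04), GADD45GIP1 (0.47, SE 0.07), AURKAIP1 (0.44, SE 0.04) and DAP3 (0.14, SE 0.04). CHCHD1 was not called, at 46.0 ± 0.796 CPM in shNEDD9 and 40.9 ± 1.74 CPM in shNTC (edgeR adjusted p = 0.0501), although its groups did not overlap. It was called higher in 6 of 19 alternatives (adjusted p 0.0288 to 0.912). DAP3, a GTP-binding protein of the small subunit, averaged 159 ± 3.07 CPM in shNEDD9 and 144 ± 2.41 CPM in shNTC.

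The machinery around the ribosome showed rises in most of its lists, beside 35.5% of all genes tested that rose and 35.9% that fell. Of 28 assembly and rRNA modification genes, 18 rose and 3 fell (median log2 fold change 0.44), led by the rRNA methyltransferase MRM1 (1.40), C1QBP (1.05) and TFB1M (0.86), which dimethylates the small ribosomal RNA. Of 14 translation factors, 8 rose and 1, GUF1, fell (median 0.38), led by the recycling factor MRRF (1.04), the elongation factor TSFM (1.02) and the initiation factor MTIF2 (0.99). Of 17 mitochondrial tRNA synthetases, 13 rose and 2 fell (median 0.43). PARS2 and FARS2, which charge proline and phenylalanine tRNAs, rose by 0.78 and 0.68. Of 27 genes of mitochondrial transcription and RNA maturation, 18 rose and 2 fell (median 0.42). Among them TFAM, which packages mitochondrial DNA and starts its transcription, averaged 138 ± 5.92 CPM in shNEDD9 and 67.8 ± 1.99 CPM in shNTC (1.03, SE 0.05). The RNA-binding protein GRSF1 went the other way, at -0.54. Of 20 import genes tested, 16 rose (median 0.54) and 0 fell with edgeR, with DESeq2 or at an unadjusted p under 0.05, led by TIMM44 (1.16), CHCHD4 (1.07) and TOMM40 (0.95). Of 10 chaperones and proteases, 7 rose and 2 fell (median 0.48). The proteases LONP1 and CLPP rose by 1.04 and 0.94, and the m-AAA protease subunits diverged, with AFG3L2 at 0.59 and SPG7 at -0.43.

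**Figure D5:**
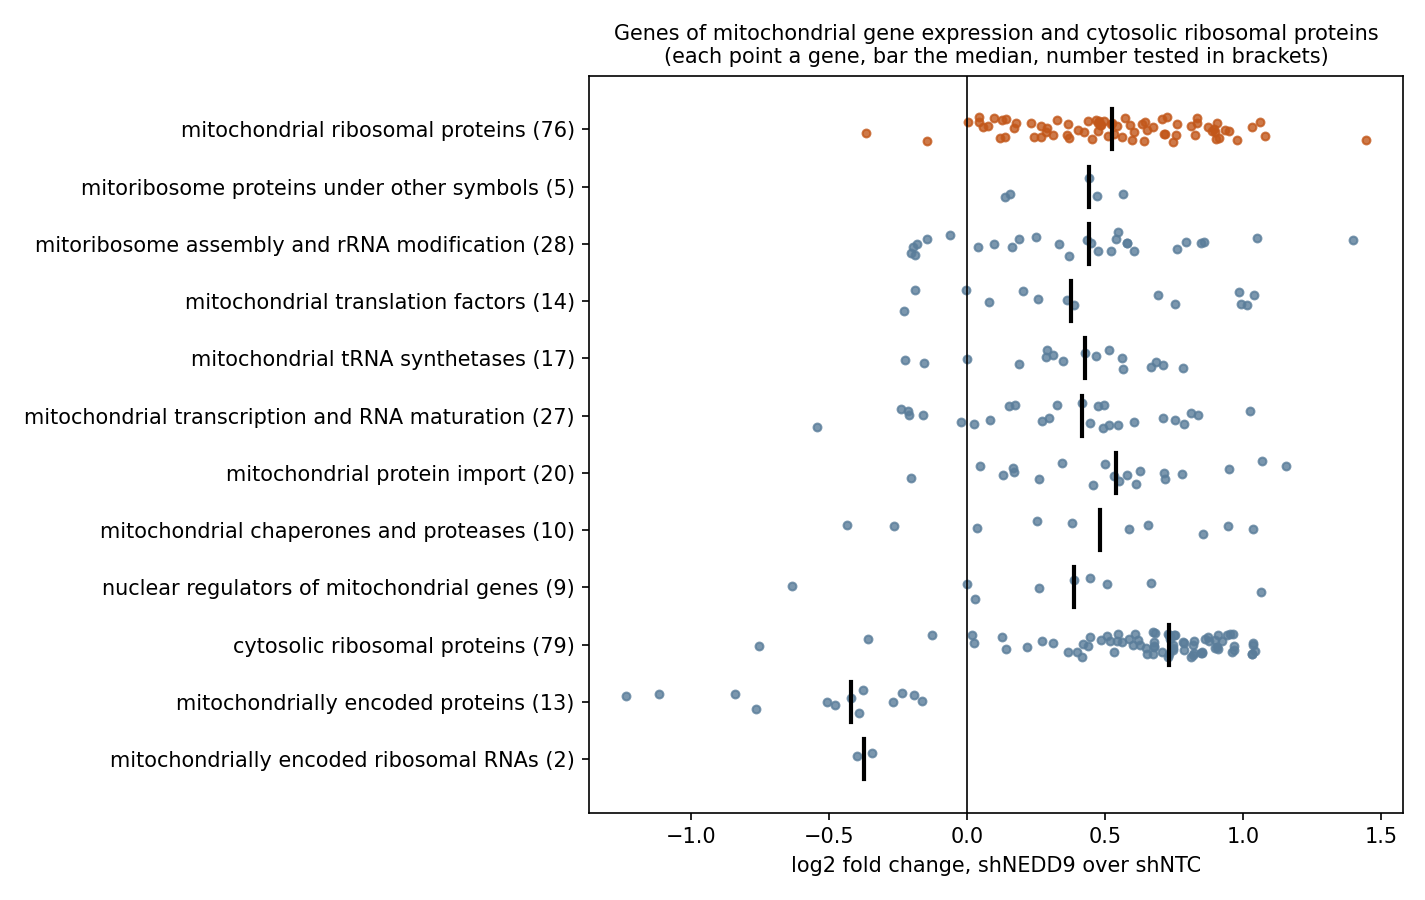
Log2 fold change, shNEDD9 over shNTC (x axis), of each tested gene (points) in lists of mitochondrial gene expression and of cytosolic ribosomal proteins, with the median of each list as a bar. Medians of the nuclear-encoded lists lie between 0.38 and 0.73, and those of mitochondrially encoded proteins and rRNAs lie below 0.

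The RNAs that mitochondria themselves encode were lower. All 13 protein-coding genes and both rRNAs fell, beside 35.9% of all genes tested. MT-RNR1 and MT-RNR2, the rRNAs that these proteins coat, fell by 0.40 and 0.34 on the log2 scale (SE 0.03 and 0.02). MT-RNR1 averaged 322 ± 3.24 CPM in shNEDD9 and 422 ± 19.4 CPM in shNTC. The libraries were made from total RNA, and the part of library preparation in these rRNA levels was not tested. The protein-coding genes had a median log2 fold change of -0.42, with the largest declines in MT-ND6 (-1.23), MT-ND5 (-1.11) and MT-ND1 (-0.84), subunits of complex I. Together they took 1.99% ± 0.0242 of counts in shNEDD9 and 2.81% ± 0.0464 in shNTC (SD, n = 3 each). Their sum was lower in every shNEDD9 library, while that of the mitochondrial ribosomal proteins was higher.

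Cytosolic ribosomal proteins, the counterparts outside the organelle, rose too. Of 79 genes, 72 rose and 1 fell (RPL9), with a median log2 fold change of 0.73, while 35.5% of all genes tested rose. RPL23A, RPL27A and RPS23 had the largest rises, each of 1.04. Their sum took 5.02% ± 0.0660 of counts in shNEDD9 and 2.95% ± 0.0323 in shNTC (SD, n = 3 each), a ratio of 1.70 beside 1.44 for the mitochondrial set. Whether the ratios differ was not tested. Many of these genes have near-identical pseudogenes that can take or lose reads.

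Among nuclear regulators of mitochondrial genes, 6 of the 9 tested rose and 1 fell (median log2 fold change 0.39), while 35.5% of all genes tested rose. MYC, which binds E-boxes, averaged 606 ± 17.3 CPM in shNEDD9 and 291 ± 8.23 CPM in shNTC (1.07, SE 0.03). NRF1, which binds the GCATGCGC type of word, averaged 34.5 ± 2.32 CPM in shNEDD9 and 21.8 ± 1.72 CPM in shNTC (0.67, SE 0.09). YY1 and GABPA, a factor of the ETS family, rose by 0.26 and 0.51. ESRRA, an orphan nuclear receptor, fell by 0.63 (SE 0.05), at 86.9 ± 4.43 CPM in shNEDD9 and 137 ± 5.77 CPM in shNTC. YY1, GABPA, AFG3L2, GUF1, GRSF1 and SPG7 were singled out after their values were seen, and so were members outside the rule for named genes.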

How the data were processed

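VCaP RNA was purified on columns and made into stranded total RNA libraries, per the labels' protocols. The values deposited by the authors are whole-number counts per gene, without normalisation. As tools, the submitters' processing notes list STAR 2.5.3a, featureCounts, Subread 1.6.2, cutadapt 1.9 and FastQC 0.11.5, with builds hg19 and GRCh38. How strand was treated in counting, and which annotation was used, is not given in the sources used here, so reads of overlapping or antisense genes may be mixed. Coordinates and exon lengths are from GENCODE 29 (GRCh38), and promoter sequences from RefSeq (GRCh38.p14).

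Samples were grouped by the shRNA in their titles. filterByExpr (minimum count 10) kept 13958 genes, whose counts went into edgeR 4.0.16 (R 4.3.3, glmQLFit with robust estimation and glmQLFTest, TMM factors, no covariate). Benjamini-Hochberg adjustment covered all 13958 genes, and calls were made at an adjusted p under 0.05. Fold changes are shNEDD9 over shNTC. SE is the absolute log2 fold change divided by the square root of F. Errors of CPM are SD over 3 libraries. Floors cover counting error only. The procedure was tested on simulated data.

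The members and lists were chosen with earlier results of these data known. Named members were chosen by function, by the 10 largest rises, by every fall, by CPM and by failing the filter. From other lists the 3 called genes of largest change were taken; a few of the genes chosen are not reported here. Replicate numbers did not pair the samples (correlations of deviations -0.03, 0.01 and 0.03 over 9972 genes). Alternatives were scaling by RLE, upper quartiles or library totals, no filter, a mean of at least 1 CPM, limma-voom (3.58.1), DESeq2 1.42.0, a replicate block, an assumed coefficient of variation of 10%, glmTreat, thinning to 3217276 counts, a length offset with and without the block, each library left out, and members sharing exons left out.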

Additional observations from a re-analysis of the deposited data

How the results depend on the processing

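The count of members higher in shNEDD9 stayed between 52 (change beyond 1.2-fold) and 64 (library totals) of those tested, DESeq2 called 60 and limma-voom 62, and 0 members were called in the opposite direction. It was 54 with an assumed coefficient of variation of 10%, 60 with a length offset, and 59 to 63 when each library was left out in turn. Of the 63 members, 52 were called higher in every one of 19 alternatives. The median log2 fold change of 0.52 was 0.55 without a count filter, 0.50 with a length offset (also with the replicate block) and 0.51 to 0.55 with a library left out. The count of members lower, 2, was 1 with the assumed variation, 0 beyond 1.2-fold and 1 to 2 with a library left out; MRPL41 was the call lost without shNTC replicate 3. Leaving out members that share at least 10% of exon length, an alternative chosen after seeing the data, left 44 members higher, 15 of them in the small subunit, because fewer genes were counted. With the replicate number as a block, 63 members were higher and 2 lower; the numbers mark no known pairing. Depth limits the 2 untested members and those under 10 CPM.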
